A study of Mus musculus with 6 samples.

Results

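The cells described here are the Col1a1-rich non-immune cells of mouse melanoma tumours, 138 of 52390 cells kept. They were selected on measured values: at least 10 unique molecular identifiers (UMIs, 1 per captured RNA molecule) of Col1a1, a type I collagen chain, and at most 1 UMI of the immune genes Ptprc and Tyrobp together. The working name for them was host fibroblasts, and the data fitted that name for only part of them. The 138 cells fell into an upper range of 58 cells with at least 50 Col1a1 UMIs, a middle range of 7 cells with 25 to 49, and a lower range of 73 cells with 10 to 24. As a pool, upper-range cells held the 4 given fibroblast markers that the rule did not use (Col1a2, Col3a1, Dcn and Lum) at least 4-fold above tumour-like cells, with a wide set of other matrix genes, and are fibroblast-like by those 4. Lower-range cells held Lum alone of the 4 at that level, and few of the other genes. Their pooled Col1a2, Col3a1 and Dcn were above tumour-like cells by less than 4-fold. Both borders between the ranges were drawn after the values were seen, and every comparison between cells chosen on Col1a1 is given as a description with no test.

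Male C57Bl/6 mice aged 6 to 8 weeks carried subcutaneous tumours started with 600000 cells of YUMMER1.7, an ultraviolet-irradiated derivative of a melanoma line. All 6 libraries came from tumour-bearing mice: 3 sedentary (1, 2, 3) and 3 exercise (5, 6, 8), the latter running 45 minutes daily at 12 metres a minute through 14 days. The tumour was broken up in collagenase with DNase (15 minutes, 37 degrees, 100 micrometre strainer) and red cells were lysed; every sample was over 70% viable. Libraries were 10x Genomics 3' version 3, which counts the ends of transcripts, so levels are compared between cells and not between genes. The protocol names no sort. The labels do not say whether each library is 1 mouse, so p-values between groups measure only the spread between these libraries.

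Fibroblasts build the collagen-rich matrix of skin and of tumours. They secrete fibrillar procollagens, trim and crosslink them, and coat the fibrils with small proteoglycans such as decorin and lumican. In tumours they are also known as sources of chemokines and complement proteins, and those next to cancer cells often take on contractile proteins of smooth muscle. Fibroblasts of normal connective tissue include a Pi16 and Dpp4 bearing kind that lies in the outer layer of vessels and fascia. Melanoma cells that have lost pigment genes can carry mesenchymal genes too, so that a collagen transcript alone does not mark a fibroblast.

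The 6 libraries held 58351 barcodes and 97426009 to 131778565 UMIs each. Cells were kept from 300 genes and 500 UMIs upward, with no more than 20% of UMIs from mitochondrial genes. Tumour-like cells, the comparison population, were 27931 cells with at least 5000 UMIs, at most 1 Ptprc or Tyrobp UMI, no Cd3e or Pecam1 UMI and at most 2 Col1a1 UMIs. A second comparison population was 10857 immune cells with at least 5 Ptprc or Tyrobp UMIs. Median depth was 11055.5 UMIs in the upper range, 14119 in the lower range, 17897 in tumour-like cells and 4286 in immune cells. Between libraries 309 kept barcodes were shared, and 2 members had a barcode also kept in another library. No kept cell had 10 Col1a1 UMIs together with more than 1 immune UMI. Scrublet called 944 kept cells doublets, 1.03% to 2.42% of a library, and 1 of these was a member, in the lower range, and none was in the upper range.

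Col1a1 per cell ran from 10 to 448 UMIs among members, with a median of 22. In the upper range the lowest, median and highest were 51, 139.5 and 448, and in the lower range 10, 13 and 24. The upper range held 1, 10 and 1 cells in sedentary 1, 2 and 3 and 32, 7 and 7 cells in exercise 5, 6 and 8. The lower range held 28, 5 and 15 cells in the sedentary libraries and 5, 16 and 4 in the exercise libraries. Both ranges were found in every library, but exercise 5 gave 32 of the 58 upper-range cells while sedentary 1 gave 28 of the 73 lower-range cells. As a measure of free RNA, immune cells had 1.96 to 6.01 Col1a1 counts per 1000000 UMIs (CPM) in a library. Tumour-like cells, limited to 2 Col1a1 UMIs by their definition, had 2.03 to 5.88.

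**Figure D1:**
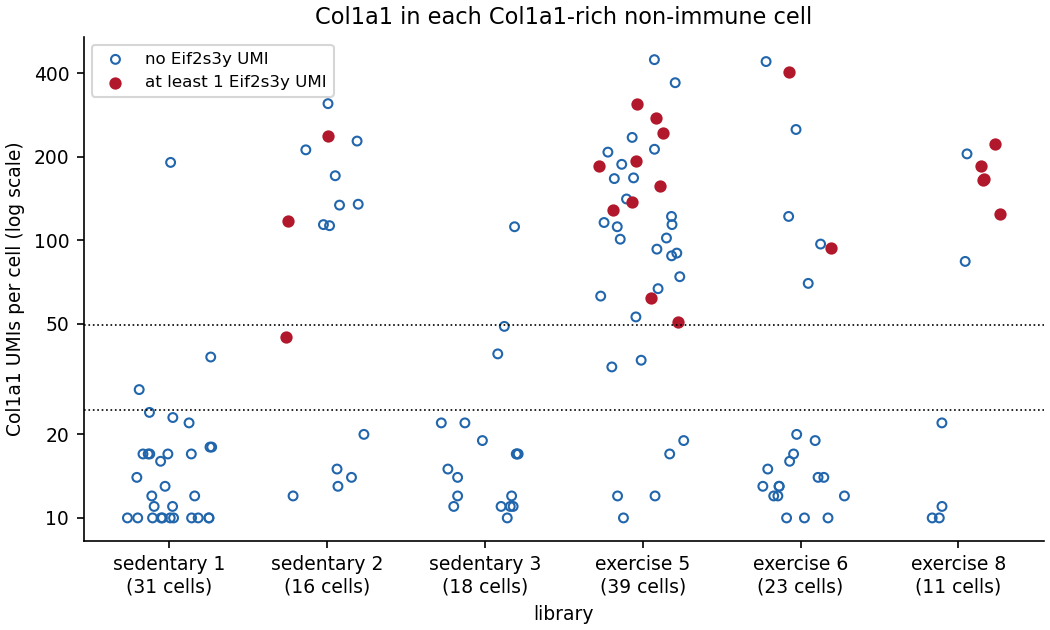
Col1a1 UMIs (log scale) of each of the 138 members by library, 1 point per cell, filled where the cell also had a UMI of the Y-linked gene Eif2s3y; dotted lines mark the borders of the ranges. No filled point lies among the 73 cells under the lower line, and 19 of the 58 cells above the upper line are filled.

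A gene that the rule did not use also differed between the ranges, whose borders were drawn after the values were seen. Eif2s3y, a Y-linked subunit gene of a translation initiation factor, had 22 UMIs in the upper range, 34.5 CPM (exact 95% Poisson interval 21.6 to 52.3), in 19 of 58 cells. Immune cells of these male mice had 35.4 CPM, and 23.5 to 47.8 CPM by library. The lower range had 0 Eif2s3y UMIs among 1260832, which allows a level of up to 2.38 CPM, so the upper range was at least 14.5-fold higher. Tumour-like cells had 0.0957 CPM, 56 UMIs in all, and no more than 0.146 CPM in any library. By library the upper range had 2 Eif2s3y UMIs in sedentary 2, 12 in exercise 5, 2 in exercise 6 and 6 in exercise 8, and none in the single cells of sedentary 1 and sedentary 3. Other Y-linked genes did not show this gap. Ddx3y, an RNA helicase gene, stood at 105.1 CPM in the upper range, 86.5 in the lower range, 55.7 in tumour-like cells and 56.5 in immune cells, and Uty and Kdm5d were likewise detected in all 4.

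A gap was also seen in cells thinned to equal depth, though the ranges were still those set on Col1a1 UMIs before thinning. With each cell thinned to 5000 UMIs, which left out 4 upper-range and 2 lower-range cells, Eif2s3y had a UMI in 13 of 54 upper-range cells (24.1%), in 0 of 71 lower-range cells, which allows a share of up to 4.23%, and in 0.043% of tumour-like cells. Immune cells thinned the same way had one in 16.9%, with 6355 shallower cells left out. Without thinning the shares were 32.8%, 0%, 0.193% and 18.4%. In the same thinned cells Fbln2, the matrix protein fibulin 2, had a UMI in 54 of 54 upper-range cells, 1 of 71 lower-range cells and 11 of 27931 tumour-like cells. Each of the 2 lower-range cells left out had 1 Fbln2 UMI.

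Mfap5, a protein of the microfibrils around which elastic fibres form, differed between the ranges as well. It had at least 1 UMI in 54 of 58 upper-range cells and in 1 of 73 lower-range cells. That lower-range cell, from exercise 5, had 12 Mfap5 UMIs, 17 Col1a1 UMIs and 6531 UMIs in all. Over all libraries 46 non-immune cells had at least 5 Mfap5 UMIs, and all 46 were members, 44 of them in the upper range. Fbln2 was found in 58 of 58 upper-range cells, with a lowest value of 2, a median of 22.5 and a highest of 98 UMIs, and in 3 of 73 lower-range cells, with at most 2 UMIs. Those 3 cells were shallow, with 554, 2905 and 6531 UMIs in all, and had 21660, 7573 and 2603 CPM of Col1a1. The ranges were set on UMIs and not on CPM, and the part of depth in placing these cells was not tested. In the middle range Fbln2 was found in 3 of 7 cells and Mfap5 in 1.

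**Figure D2:**
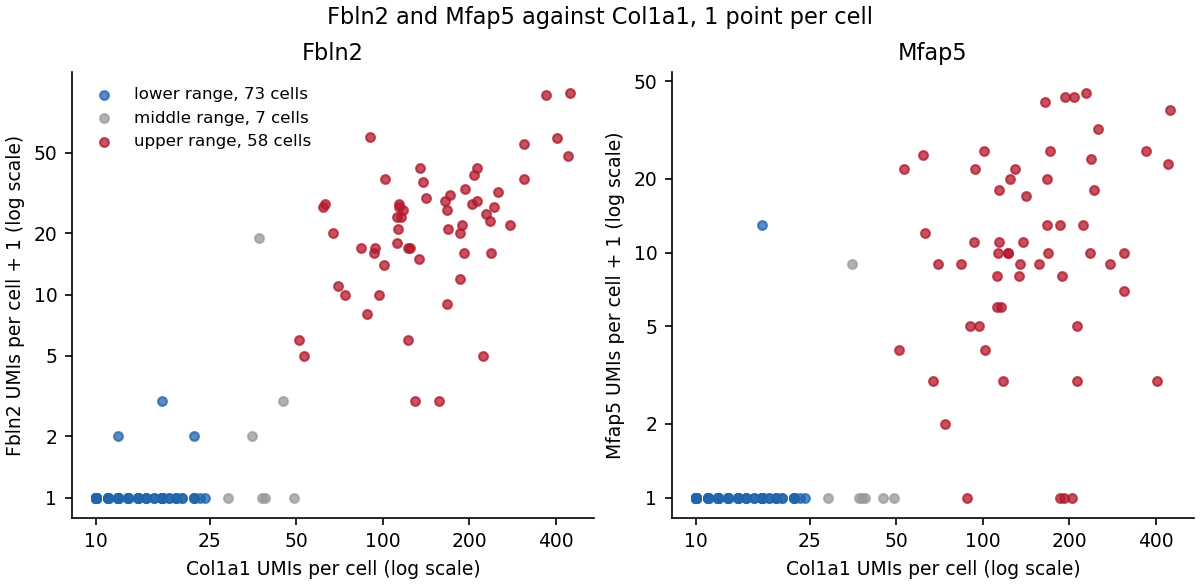
UMIs per cell of Fbln2 (left) and Mfap5 (right), with 1 added, against Col1a1 UMIs, both axes on log scales, 1 point per cell coloured by range. All 58 upper-range cells had Fbln2, and 70 of the 73 lower-range cells lie on the line of no Fbln2 UMI.

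At the threshold itself most of these genes showed no step. Non-immune cells of at least 5000 UMIs with 8 or 9 Col1a1 UMIs, just outside, were 46, and 25 members had 10 or 11, just inside. Col1a2, the second chain of type I collagen, stood at 2050 CPM outside and 1850 inside. Postn, the matrix protein periostin, stood at 410 and 387 CPM, and Dcn, decorin, was lower inside, at 214 against 569. Eif2s3y had no UMI on either side. Cells with no Col1a1 UMI had 858 CPM of Col1a2 and 30.6 of Postn, and both levels were higher in every band of Col1a1 up to 6 or 7 UMIs, where they were 1970 and 432 CPM. Members with 50 to 99 Col1a1 UMIs had 9390 CPM of Col1a2, 893 of Mfap5 and no Nes UMI. Nes, the intermediate filament nestin, was at 49.2 CPM in the lower range and 52.6 in tumour-like cells, and it had 0 UMIs among 637185 in the upper range.

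Against tumour-like cells the 138 members pooled had 256 of 6299 genes at least 4-fold higher, which is 4.06%, and 24 at least 4-fold lower, which is 0.381%. These counts take genes with at least 20 CPM in either pool, with 1 CPM added before the ratio. Split by range, the upper range had 535 of 6599 higher (8.11%) and 198 lower (3%), and the lower range had 68 of 6127 higher (1.11%) and 22 lower (0.359%). Between the ranges themselves 438 of 6686 genes were at least 4-fold higher in the upper range (6.55%) and 185 lower (2.77%). The rule used cells of this contrast, so nothing is read from the size of these counts. Col1a1 itself differs by the choice of cells and is counted in these numbers. Middle-range cells were mixed: 1 of the 7 had 18 Fbln2 UMIs, another had 8 of Mfap5 and 9 of Pi16, and a further one had an Eif2s3y UMI.

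Markers of immune, endothelial and skin cells were scarce in the upper range, while those of some mesenchymal types were not. Of 12 macrophage genes 8 were detected, summing to 61.2 CPM against 11500 in immune cells, with Adgre1 and Cd68 at 0, and by library this sum was 35.6 to 79.5 CPM over the 4 libraries with at least 3 upper-range cells. Ptprc and Tyrobp are on this list, and both the members and the immune cells were chosen on them. The contrast with immune cells thus follows in part from the choice of cells. For 8 T cell genes the sum was 22 CPM, with Cd8a and Cd4 at 0 and 2 Cd3e UMIs in 2 cells. The endothelial list summed to 80 CPM with Cdh5, Kdr and Cldn5 at 0, and Flt1 made up most of it. Of 10 Schwann cell genes only Scn7a was detected, in 24 of 58 cells, and of 8 keratinocyte genes Krt5 and Krt14 were at 0. Lower-range sums were 33.3, 3.97, 24.6 and 3.17 CPM for macrophage, T cell, endothelial and Schwann genes. In tumour-like cells, which lack Cd3e and Pecam1 by definition, these sums were 24.9, 3.55, 39.3 and 4.51 CPM, all below the upper range. The 10 pigment cell genes summed to 34.5 CPM in the upper range, 3.97 in the lower range and 10.4 in tumour-like cells, with Tyr, Dct, Tyrp1, Pmel and Sox10 at 0 in members. Mitf, a factor of pigment cells that other cells also carry, made up most of the upper-range sum, at 28.2 CPM in 16 of 58 cells. The pericyte list, with 9 of 12 genes detected, summed to 408 CPM in the upper range (309 to 531 by library), 224 in the lower range and 92.9 in tumour-like cells. The adipocyte list summed to 210 CPM in the upper range (107 to 309), all of it from Lpl and Fabp4, against 3.17 in the lower range and 27.4 in tumour-like cells. The bone and cartilage list was high everywhere, at 5510, 6410 and 5620 CPM, nearly all of it Spp1, osteopontin. The part of these cell types in the results was not tested.

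Fibrillar collagens were abundant in the upper range. Of 11 genes 7 reached 20 CPM in a pool and were at least 4-fold higher than in tumour-like cells, against 8.11% of all genes. One of the 7 is Col1a1, which chose the cells; the other 6 are Col1a2, Col3a1, Col5a1, Col5a2, Col5a3 and Col27a1. Levels by library are given for the 4 libraries with at least 3 upper-range cells. Col3a1, the type III chain of soft tissue fibrils, stood at 23800 CPM in sedentary 2, 21700 in exercise 5, 22500 in exercise 6 and 20800 in exercise 8. In tumour-like cells it was at 820 to 1090 CPM over the 6 libraries. Its pooled upper-range level of 22050 CPM was 24.2-fold higher. Col1a2 was at 17700, 14400, 19300 and 15400 CPM in the same libraries, against 883.3 in tumour-like cells. No library of the upper range overlapped the tumour-like libraries for either gene. How many of all genes lack such overlap was not counted, so nothing is read from this. Col5a1 and Col5a2, which regulate fibril diameter, were 16-fold and 12.7-fold higher. Col11a1, a chain best known from cartilage, was highest in the lower range, at 61.9 CPM against 9.42 in the upper range and 10.7 in tumour-like cells.

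Of 17 other collagens 8 of 15 considered were at least 4-fold higher in the upper range and 2 lower. Over all genes these shares were 8.11% and 3%. Col12a1 and Col14a1, which sit on the fibril surface, stood at 1987 and 604.2 CPM, against 8.26 and 0.0308 in tumour-like cells. Col6a1, Col6a2 and Col6a3, the beaded filament chains, differed less, with ratios of 3.78, 5.03 and 2.75. Col18a1, a basement membrane collagen, was lower in the upper range, at 169.5 CPM against 813 in tumour-like cells and 839.1 in the lower range. Col15a1, another of that kind, had like levels in both ranges, 232.3 and 235.6 CPM, against 14.3 in tumour-like cells.

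The small leucine-rich proteoglycans, which bind collagen fibrils and space them, followed the fibrillar collagens. All 7 considered of 12 were at least 4-fold higher in the upper range, with a median log2 ratio of 5.04 against -0.05 over all genes. Dcn stood at 6430 CPM in sedentary 2, 6130 in exercise 5, 3040 in exercise 6 and 5230 in exercise 8, against 308.4 in tumour-like cells. Lum, lumican, was at 850, 701, 430 and 1050 CPM, and at 3.03 in tumour-like cells. Exercise 6 was the lowest of the 4 libraries for both genes. Bgn, biglycan, was shared more widely, at 3346 CPM in the upper range, 1771 in the lower range and 443.3 in tumour-like cells. Ogn, Aspn, Prelp and Podn completed the group at 43.9 to 182.1 CPM.

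Genes that fold, trim and crosslink collagen were split. Of 23 genes 20 were considered and 12 were at least 4-fold higher in the upper range, with a median log2 ratio of 2.21. Among all genes 8.11% were higher. Lox, the lysyl oxidase that crosslinks collagen and elastin, was at 564 CPM in sedentary 2, 1030 in exercise 5, 875 in exercise 6 and 297 in exercise 8, and at 1.11 in tumour-like cells. It was found in 55 of 58 upper-range and 2 of 73 lower-range cells. Loxl2, a related oxidase, was 517-fold higher, and Adamts2, which removes the amino end of procollagen, 143-fold. Sparc, a collagen-binding glycoprotein, reached 13830 CPM against 959.2. Among subunits of prolyl hydroxylase, P4ha2 and P4ha3 were among the 12, while P4hb and P4ha1 were 1.91-fold and 1.34-fold higher.

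Among 16 elastic fibre and microfibril genes, all of them considered, 10 were at least 4-fold higher in the upper range and 1, Ltbp4, lower. The shares over all genes were 8.11% and 3%. Fbln2 was at 2480, 2400, 2520 and 1600 CPM in sedentary 2 and exercise 5, 6 and 8, against 38 UMIs in all tumour-like cells together, or 0.0649 CPM. Mfap5 was at 1300, 1190, 1390 and 1160 CPM, against 0.094. For both genes all 4 libraries were high. Fbn1, the fibrillin of the microfibril core, was 30.6-fold higher. Eln, elastin itself, was found in 13 of 58 cells only, at 174.2 CPM. Mfap4 had like levels in both ranges, 84.8 and 81.7 CPM, against 2.64 in tumour-like cells.

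Matricellular proteins act on cells from within the matrix, and 18 of their 20 genes were considered. At least 4-fold higher in the upper range were 13, and 2, Sparcl1 and Tgfbi, were lower. For all genes the shares were 8.11% and 3%. Postn was present in every upper-range cell, with a lowest value of 2, a median of 34.5 and a highest of 144 UMIs. Its level was 4350 CPM in sedentary 2, 2890 in exercise 5, 5670 in exercise 6 and 3560 in exercise 8. Postn was also found in 65 of 73 lower-range cells, at 614.7 CPM pooled against 36.2 in tumour-like cells. Cthrc1, a collagen triple helix repeat protein of active fibroblasts, was at 337.4 CPM in 44 of 58 upper-range cells, with 0 UMIs in the lower range, at least 142-fold higher. Tnc, tenascin C, and Spon1, spondin 1, stood at 761.2 and 535.2 CPM against 11.9 and 1.59 in the lower range. Fn1, fibronectin, was abundant everywhere and 2.43-fold higher than in tumour-like cells.

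**Figure D3:**
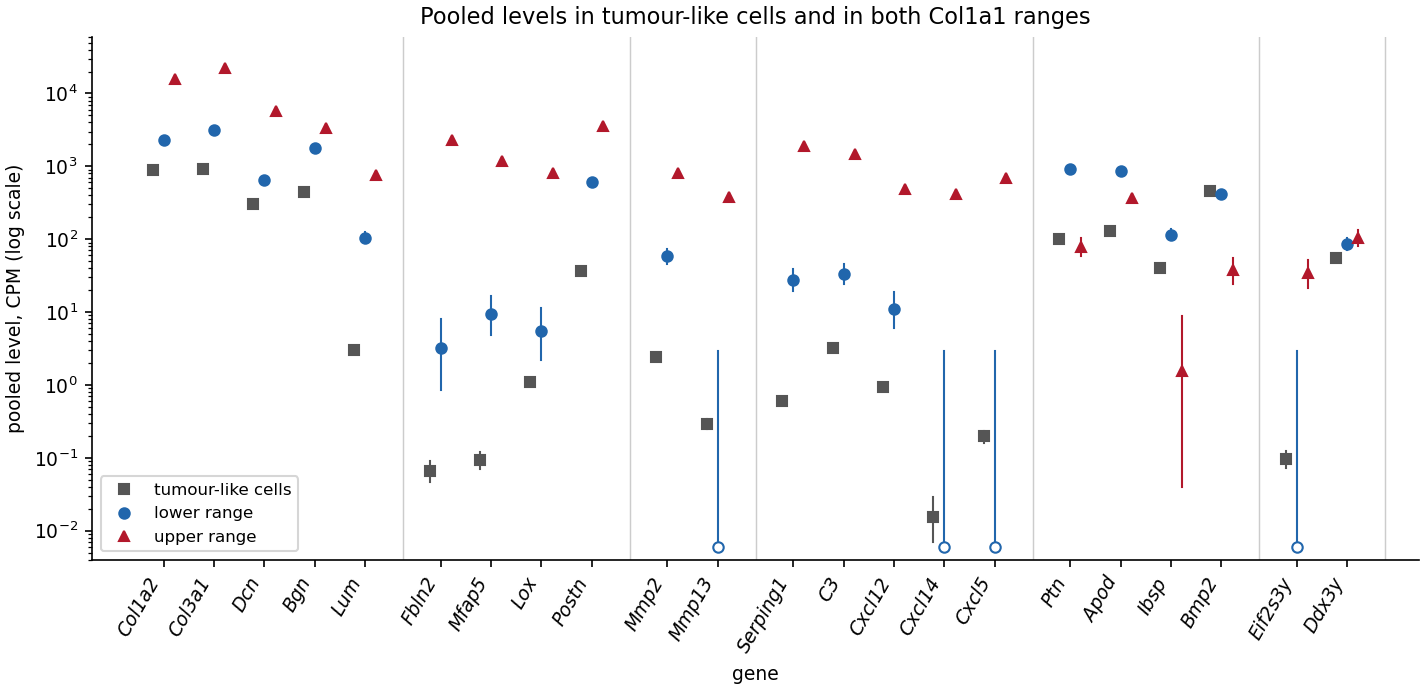
Pooled level in CPM (log scale) of selected genes in tumour-like cells (squares), the lower range (circles) and the upper range (triangles), with exact 95% Poisson intervals of the counts as bars; an open symbol at the bottom is a count of 0. Fbln2 stands at 2301 CPM in the upper range and 3.17 in the lower, while Ptn is higher in the lower range, at 923.2 against 78.5 CPM.

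Matrix proteases and their inhibitors had 13 of 19 considered genes at least 4-fold higher in the upper range and none lower. All genes together had 8.11% higher and 3% lower. Mmp2, a gelatinase, was at 734, 778, 918 and 713 CPM in sedentary 2 and exercise 5, 6 and 8, and at 2.4 in tumour-like cells. Mmp13, a collagenase, was unlike it: all 240 UMIs came from 7 cells, and the level was 0 in sedentary 2 and exercise 6, 25.5 CPM in exercise 5 and 2740 in exercise 8. Mmp3 and Mmp14, a stromelysin and a membrane-bound protease, were only 3.87-fold and 2.01-fold higher. Timp1, an inhibitor of these proteases, stood at 1373 CPM against 212, and Serpine2, an inhibitor of serine proteases, at 459.8 against 30.2.

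Of 6 contractile genes considered 3, Acta2, Tagln and Myl9, were at least 4-fold higher in the upper range, against 8.11% of all genes. Each of these 3 was found in a minority of upper-range cells. Tpm1, Tpm2 and Cnn2, which many cell types carry, were found in 52, 38 and 36 of 58 cells at levels under 4-fold from tumour-like cells. Acta2, smooth muscle actin, had a UMI in 19 of 58 upper-range cells and at least 5 in 10, with a highest value of 156. Its level was 600 CPM in sedentary 2, 309 in exercise 5, 2600 in exercise 6 and 356 in exercise 8, against 5.93 pooled in tumour-like cells. The exercise 6 level came mostly from 1 cell, which held 156 of the 181 Acta2 UMIs there. Tagln, transgelin, was at 291.9 CPM in 21 cells. Myh11 and Cnn1, which mark mature smooth muscle, had 0 and 1 UMIs. Of the pericyte list, Ndufa4l2 and Pdgfrb were at least 4-fold higher, with Ndufa4l2 at 141.2 CPM in 20 cells, Cspg4 was lower, and Rgs5, Mcam and Higd1b had 0 UMIs in the upper range. A single middle-range cell held all 40 Rgs5 UMIs of its range.

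Complement genes formed a further group. Of 14 genes 10 were considered and 8 were at least 4-fold higher in the upper range, with a median log2 ratio of 5.83. Among all genes 8.11% were higher. Serping1, the C1 inhibitor, was found in 58 of 58 cells at 1580, 2150, 1150 and 2020 CPM in sedentary 2 and exercise 5, 6 and 8, and at 0.593 in tumour-like cells. C3, the central complement component, was found in 37 cells and varied more, at 421, 2120, 387 and 1570 CPM. C1s1 and C1ra, proteases of the first complex, were 74.4-fold and 58.9-fold higher. Clu, clusterin, was highest in the lower range, at 259.4 CPM against 23.5 in the upper range.

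Several chemokines were abundant in the upper range. Of 22 genes of the inflammatory list 14 were considered, of which 9 were at least 4-fold higher and 1, Lcn2, lower. The shares over all genes were 8.11% and 3%. Cxcl12, which holds leukocytes bearing Cxcr4, was found in 53 of 58 cells at 555, 499, 459 and 416 CPM. Cxcl14 was less even, at 17.9 CPM in sedentary 2, 431 in exercise 5, 1030 in exercise 6 and 178 in exercise 8. Cxcl5, a neutrophil attractant, was at 331, 919, 731 and 226 CPM in 27 cells. Neither Cxcl14 nor Cxcl5 had a UMI in the lower range, so the upper range was at least 175-fold and 289-fold higher. Ccl8, Ccl11 and Ccl7, attractants of monocytes and eosinophils, stood at 532, 285.6 and 199.3 CPM. Ccl2, a monocyte attractant, was at 599.5 CPM against 209.4 in the lower range and 251.2 in tumour-like cells, and within the upper range nearly all of it lay in cells with at most 1 Pi16 UMI (850.5 CPM, against 16.3 in those with at least 5). Il6 had no UMI in either range.

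The 250 bases before the RefSeq start of 3 of these genes are printed because they stand for different roles (collagen, chemokine, protease) and differ in how evenly upper-range cells carry them: Col3a1 in 58, Cxcl12 in 53 and Mmp13 in 7 of 58 cells. Capitals mark matches, on either strand, to any of 4 short motifs. The GC box was searched as GGGCGG. The core of the TATA box was searched as TATAAA. The site of the AP-1 factors was searched as TGANTCA, and the box bound by NF-Y as CCAAT. Coordinates are GRCm38.p6, 5' to 3' on the gene's strand: Col3a1 at chr1:45311288-45311537, Cxcl12 at chr6:117168285-117168534 and Mmp13 at chr9:7272264-7272513, all on the plus strand.
Col3a1: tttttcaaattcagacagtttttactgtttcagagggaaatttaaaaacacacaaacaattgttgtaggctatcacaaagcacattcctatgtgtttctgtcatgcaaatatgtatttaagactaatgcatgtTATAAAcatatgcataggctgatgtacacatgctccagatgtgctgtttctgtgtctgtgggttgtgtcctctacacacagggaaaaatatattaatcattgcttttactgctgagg
Cxcl12: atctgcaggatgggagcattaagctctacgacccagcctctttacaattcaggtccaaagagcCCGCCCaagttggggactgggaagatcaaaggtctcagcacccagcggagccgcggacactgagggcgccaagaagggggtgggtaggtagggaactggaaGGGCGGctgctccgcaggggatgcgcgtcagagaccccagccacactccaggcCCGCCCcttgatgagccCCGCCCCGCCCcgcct
Mmp13: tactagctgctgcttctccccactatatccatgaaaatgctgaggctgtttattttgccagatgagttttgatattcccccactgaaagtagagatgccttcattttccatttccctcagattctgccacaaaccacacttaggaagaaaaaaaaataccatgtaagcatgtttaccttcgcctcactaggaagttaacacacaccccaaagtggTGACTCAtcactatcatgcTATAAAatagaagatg
Over 32851 promoter windows of the same length, 33.8% hold the NF-Y box, 32.7% the GC box, 12.4% the TATA box and 6.75% the AP-1 site. Col3a1 has 1 TATA box match, 117 bases before the start, and 35.2% G and C, against a median of 52.4% over all windows. Cxcl12 has 5 GC box matches, of which the last pair overlap, and 64.4% G and C. Mmp13 has an AP-1 match 35 bases and a TATA box match 16 bases before the start. A match is a description of letters and not a site in use. Of 15 genes looked up 8 were in the table, and 5 of these windows hold no exon of GENCODE M21. The windows of C3 and Cxcl14, among these 5 but not printed, hold no match to any of the 4 motifs.

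Growth factor genes showed a mixed picture. The PDGF, IGF, FGF and HGF list held 26 genes. Of 17 considered 9 were at least 4-fold higher in the upper range and none lower. For this list and the others of this paragraph, the shares over all genes were 8.11% higher and 3% lower. Igfbp7, an IGF and activin binding protein, was at 1080, 1230, 1120 and 1090 CPM by library, against 2.17 in tumour-like cells. Igf1 was at 206, 213, 316 and 428 CPM against 2.53. The receptors Pdgfra and Pdgfrb differed less, at 398.6 and 238.5 CPM against 139.2 and 42.2 in tumour-like cells. Of the TGF-beta and BMP list 6 of 16 were higher and 1 lower: Tgfbr2, a receptor, was 11.6-fold higher, and Bmp2, a ligand, was at 38 CPM in the upper range against 414 in the lower range and 458 in tumour-like cells. Of 9 Wnt modulators considered 6 were higher and 1, Dkk2, lower. Sfrp1 and Sfrp2, secreted proteins that bind Wnt ligands, were 91.2-fold and 370-fold higher.

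Among transcription factors, some were far higher in the upper range and others were shared by all cells. Of 28 mesenchymal factors 21 were considered, 7 were at least 4-fold higher and none lower, with a median log2 ratio of 0.46. All genes together had 8.11% higher and 3% lower. Ebf1 had 146 UMIs in 51 of 58 upper-range cells, 229.1 CPM, against 6 UMIs in the lower range and 0.0906 CPM in tumour-like cells. Prrx1, Twist1, Prrx2 and Tcf4 were present in both ranges and in tumour-like cells, with ratios of 1.12, 0.595, 0.72 and 0.649. Of 39 Hox genes, which record position along the body, 4 of 5 considered were at least 4-fold higher, with a median log2 ratio of 5.36. Hoxc8, Hoxc9 and Hoxc10 stood at 47.1, 40.8 and 42.4 CPM, found in 22, 21 and 20 cells, and had 1, 0 and 1 UMIs in the lower range. Pax3, a neural crest factor, had 3 UMIs in the upper range, 171 in the lower range and 68.4 CPM in tumour-like cells.

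By a rule of size over all members, the genes with the largest ratios to tumour-like cells also included Rarres2, Cpxm1, Gpx3, Meg3, Chl1, Ccdc80, Fndc1, Crip1, Cdh11 and Plac8. Rarres2, the chemoattractant chemerin, was at 2291 CPM in the upper range and 1.62 in tumour-like cells. Cdh11, a cadherin of mesenchymal cells, had 243 UMIs in 51 of 58 upper-range cells and 0 in the lower range. Crip1 and Plac8 were also abundant in immune cells, at 1022 and 840.2 CPM. Among the lowest were Phgdh, Psat1 and Asns, enzymes of serine and asparagine synthesis, at 7.85, 20.4 and 25.1 CPM in the upper range against 115.7, 161.7 and 101.4 in tumour-like cells. Nefl and Nefm, neurofilament chains, and Areg and Hbegf, ligands of the EGF receptor, were also low, at 11, 4.71, 3.14 and 29.8 CPM against 128.3, 61.2, 58.7 and 90.6. Apart from Areg, these genes were also among those with the lowest ratios of the lower range to tumour-like cells. In the lower range Asns stood at 11.1 CPM and Nefl at 23.8. By library Areg was at 0 to 79.3 CPM there, against 38.1 to 88.8 in tumour-like cells. Phgdh was at 0 to 111 against 95.5 to 162, so for both the libraries overlapped.

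Upper-range cells were not alike among themselves. Pi16, a peptidase inhibitor of the adventitial fibroblast kind, had at least 5 UMIs in 18 of 58 cells and at most 1 in 39, with 1 cell between. The 18 cells came from sedentary 2 (3), exercise 5 (11), exercise 6 (1) and exercise 8 (3). Acta2 had at least 5 UMIs in 10 of the 39 Pi16-low cells and in 0 of the 18. The split was chosen after these values were seen, and with 5 CPM added 165 of 3439 genes were at least 4-fold higher in Pi16-high cells (4.8%) and 129 lower (3.75%).

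Genes of the universal fibroblast list went with Pi16: 13 of 16 considered were at least 4-fold higher in Pi16-high cells and 1, Col15a1, lower. Over all genes of this split the shares were 4.8% and 3.75%. Clec3b, tetranectin, had 291 UMIs in 17 of 18 Pi16-high cells and 0 in the 39 others. Tnxb, tenascin X, stood at 1056 against 4.49 CPM, and Dpp4 at 196 CPM against a count of 0. C3 and C4b were higher as well, at 4595 and 1546 against 94.2 and 13.5 CPM. C3 was found in 18 of 18 Pi16-high cells and in 18 of 39 Pi16-low cells. Within exercise 5, which had 11 and 20 cells of the split, C3 stood at 6070 against 126 CPM and Clec3b at 1860 CPM against a count of 0. Il33, an alarmin, stood at 593.5 against 33.7 CPM.

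The activated and contractile lists went the other way, with 8 of 13 and 5 of 6 genes at least 4-fold lower in Pi16-high cells. The share over all genes was 3.75%. Tnc had 485 UMIs in 38 of 39 Pi16-low cells and 0 in the 18. Among Pi16-low cells it was at 1740 CPM in sedentary 2, 855 in exercise 5, 841 in exercise 6 and 817 in exercise 8. Spon1 and Col12a1 were found in 39 of 39 Pi16-low cells, at 760.8 and 2821 CPM against 10.9 and 49. Inhba, which makes activin, Lrrc15, a surface protein of tumour fibroblasts, and Cxcl5 stood at 365.8, 347.8 and 978.4 CPM in Pi16-low cells, against 0, 16.3 and 10.9. Cthrc1, of the same list, was at 593.5 CPM in Pi16-high and 237.9 in Pi16-low cells. Matrix genes were split. Col1a1 stood at 14180 and 16010 CPM and Lox at 745.9 and 848.3. Col3a1, Dcn and Lum were higher in Pi16-high cells, at 33930, 8330 and 1171 against 17220, 4513 and 588 CPM. Col14a1 stood at 1862 against 67.3 CPM, Ogn at 588 against 6.73 and Eln at 588 against a count of 0, while Col7a1 was at 5.45 against 347.8. Mfap5, Eif2s3y and Hoxc8 were found in both kinds, Eif2s3y with 11 and 10 UMIs. Median depth was 8905 UMIs in Pi16-high and 11626 in Pi16-low cells, and the part of depth in these differences was not tested.

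**Figure D4:**
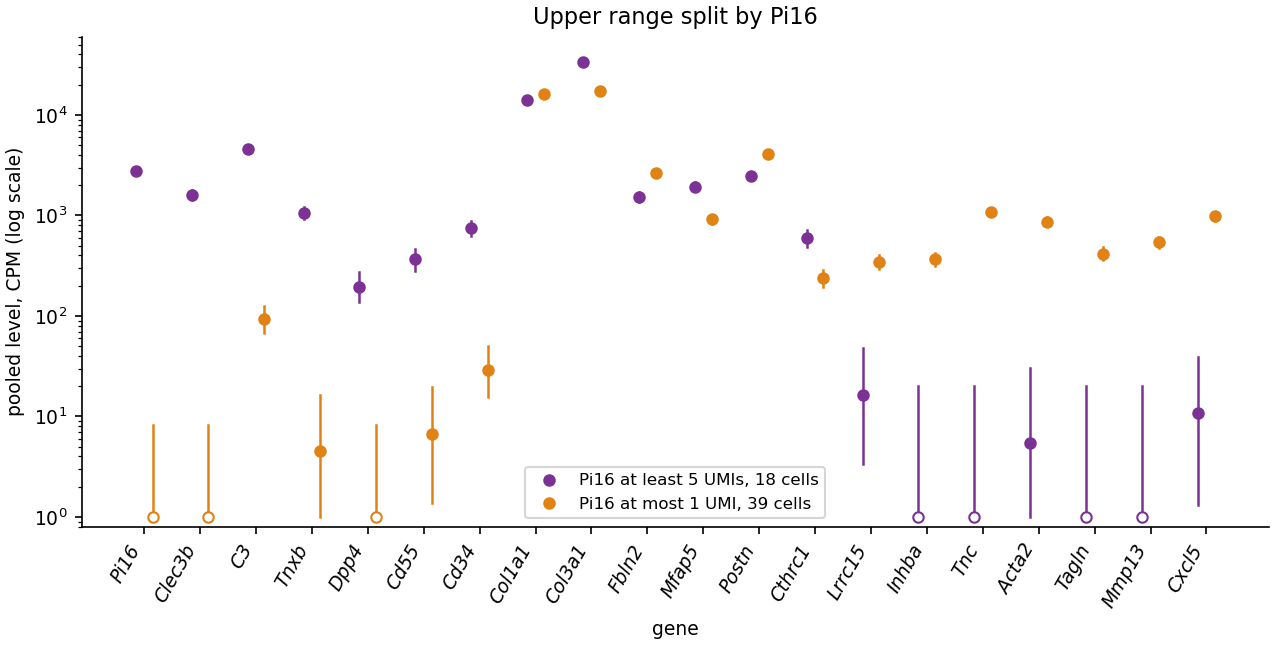
Pooled CPM (log scale) of 20 genes in upper-range cells with at least 5 Pi16 UMIs (18 cells) and with at most 1 (39 cells), bars being exact 95% Poisson intervals and open points a count of 0. Clec3b, C3 and Tnxb lie with Pi16, Tnc, Acta2 and Cxcl5 lie opposite, and Col1a1 is at 14180 and 16010 CPM.

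Lower-range cells had a smaller set of genes above tumour-like cells, 1.11% of all genes considered. Among the lists, 5 of 8 complement genes (C3, C1s1, C1ra, Serping1 and Clu), 4 of 8 activated fibroblast genes (Postn, Acta2, Inhba and Sulf1) and 4 of 12 other collagens (Col6a2, Col7a1, Col12a1 and Col15a1) were at least 4-fold higher. So were 2 of 4 proteoglycans (Lum and Aspn), 2 of 8 matricellular genes (Postn and Thbs2) and 1 of 16 collagen processing genes (Adamts2). Further lists had 4 of 13 PDGF, IGF, FGF and HGF genes, 2 of 10 elastic fibre genes (Eln and Mfap4) and 0 of 15 mesenchymal factors higher. Of the universal fibroblast list 3 of 13 were (Pi16, Col15a1 and Dpt). Pi16 had a UMI in 7 of 73 cells and at least 5 in 1. That cell, from exercise 5, had 19 Pi16, 12 Mfap5 and 56 Dcn UMIs. Of the fibrillar collagens the rule did not use, Col11a1 alone was at least 4-fold higher. Col1a2 stood at 1600 to 3520 CPM by library in the lower range, against 749 to 1010 in tumour-like cells. Col3a1 was at 2490 to 4580 against 820 to 1090, and Dcn at 190 to 1010 against 216 to 507. C3 and Serping1 were found in 6 and 9 of 73 cells, and C1s1 and C1ra in 28 and 25. By library the lower-range levels of C3 and Serping1 were uneven, at 0 to 474 and 6.94 to 215 CPM. Lum had 132 UMIs in 26 of 73 cells, 104.7 CPM against 3.03, and Mfap4 had 103 in 32 cells. Genes higher here than in both the upper range and tumour-like cells included Ptn, Apod and Igfbp3. Ptn, the growth factor pleiotrophin, stood at 923.2 CPM, against 78.5 in the upper range and 101.3 in tumour-like cells. Apod, apolipoprotein D, was at 855.8, 367.2 and 131.5 CPM, and Igfbp3 at 188.8, 65.9 and 24.9.

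In some other genes the lower range lay nearer to the tumour-like cells than to the upper range. Mgp, matrix Gla protein, was at 6807 CPM in the lower range, 3622 in tumour-like cells and 204 in the upper range. Lgals7, galectin 7, stood at 993.8, 777.2 and 37.7 CPM. Id1, a helix-loop-helix inhibitor, had 161 UMIs in the lower range and 1 in the upper range. By library Id1 was at 0 to 200 CPM in the lower range and 54 to 123 in tumour-like cells. Sox9, a neural crest and cartilage factor, is compared between the ranges only, and stood at 145.9 CPM in the lower range and 42.4 in the upper range. Chrna1, a muscle acetylcholine receptor subunit, lay between, with 21 UMIs in the lower range and 0 in the upper range. By library it was at 0 to 37.1 CPM in the lower range and 40.8 to 92.6 in tumour-like cells. Cdkn2b, an inhibitor of cell cycle kinases, stood at 34.5 CPM in the upper range, 1.59 in the lower range and 0.878 in tumour-like cells, while Cdkn2a was at 42.4, 47.6 and 37.2.

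Cells with fewer Col1a1 UMIs continued below the threshold. Non-immune cells with 3 to 9 Col1a1 UMIs numbered 229, 51 and 90 in the sedentary libraries (1, 2, 3), and the exercise libraries (5, 6, 8) held 47, 62 and 48. Sedentary 1 thus had the most of these as well as the most lower-range cells. By library the lower range had 675 to 1010 CPM of Col1a1, and 0 Eif2s3y UMIs in each of the 6.

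The share of kept cells that were members was 0.391%, 0.222% and 0.189% in the sedentary libraries 1, 2 and 3, against 0.477%, 0.242% and 0.109% in the exercise libraries 5, 6 and 8. The groups overlapped, with means of 0.267 ± 0.108% (SD, n = 3) and 0.276 ± 0.186% (SD, n = 3). The difference of 0.00864 percentage points gave p = 0.9 in an exact two-sided permutation test, for which 3 libraries against 3 allow no p below 0.1. Upper-range cells made up 0.0126%, 0.139% and 0.0105% of sedentary cells and 0.391%, 0.0737% and 0.0695% of exercise cells (exact permutation p = 0.5). Lower-range cells made up 0.353%, 0.0694% and 0.158% against 0.0611%, 0.169% and 0.0397% (exact permutation p = 0.4). Adjusted over the 3 shares tested, these exact p-values were 0.9, 0.75 and 0.75. Without exercise 5 the difference in the upper-range share went from 0.124 to 0.0176 percentage points. Without sedentary 1 the difference in the lower-range share went from -0.104 to -0.0237.

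**Figure D5:**
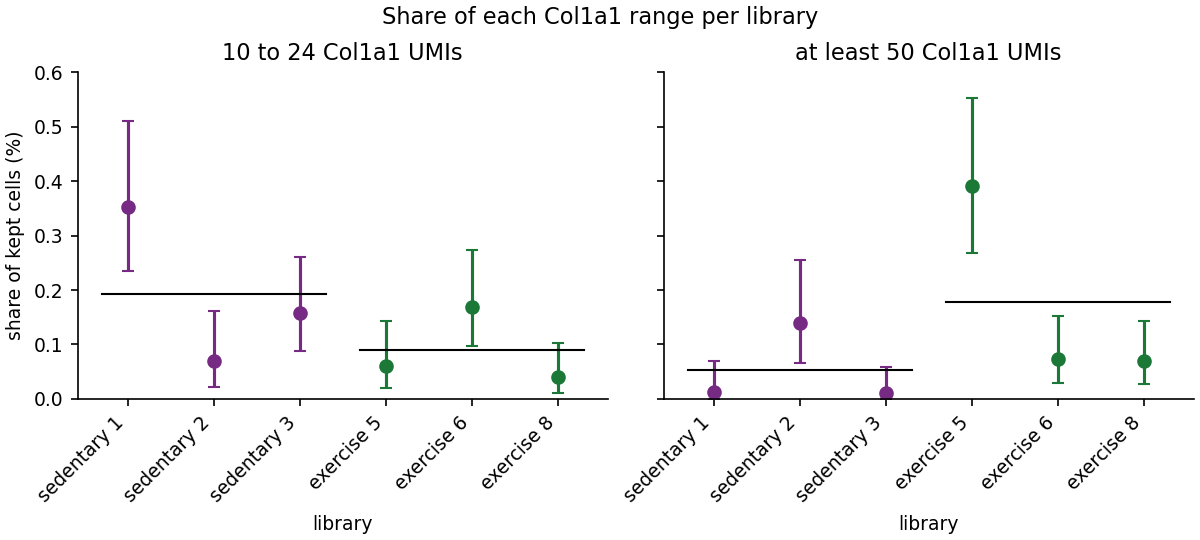
Share of kept cells in the lower range (left) and upper range (right) per library, with exact 95% binomial intervals (counting error only) and the mean of each group as a line. The highest shares are 0.353% in sedentary 1 on the left and 0.391% in exercise 5 on the right, and the groups overlap in both panels.

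The 2 libraries with the highest upper-range shares, sedentary 2 and exercise 5, were also those with the most immune cells, at 32.7% and 31.9%, where the other 4 had 13.2% to 17.5%. They were the shallowest, with medians of 6588 and 5967 UMIs per kept cell against 10570 to 12513.5. The part of these in the shares was not tested. Taken as a share of non-immune cells only, the difference in members between groups was 0.0625 percentage points (exact permutation p = 0.9).

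Expression within members did not separate the groups past the threshold. Over summed counts per library, edgeR's quasi-likelihood test called 0 of 4188 genes (0%) at an adjusted p under 0.05. At an unadjusted p under 0.05 there were 174 genes, and the smallest Benjamini-Hochberg adjusted p was 0.922. DESeq2 also called 0 genes, with 70 at an unadjusted p under 0.05. Left without sedentary 2, the library that held 10 of the 12 sedentary upper-range cells, the edgeR test called 87 genes, 85 of them higher in exercise. With no filter on low counts it called 188. Lower-range cells made up 90.3%, 31.2% and 83.3% of the sedentary members and 12.8%, 69.6% and 36.4% of the exercise members, and this mix was not part of the test. Restricted to lower-range cells, an alternative added after seeing the data, it called 0 of 2508 genes.

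Values by library are given for 6 marker and matrix genes. Col1a2 was at 2220, 10700 and 3090 CPM in the sedentary members and 12400, 6320 and 9470 in the exercise members, with a log2 change of 0.79 ± 0.6 (SE) and an edgeR adjusted p of 0.922. Lum was at 69.2, 521 and 112 CPM against 612, 344 and 672, with the sedentary 2 value inside the exercise range. Col3a1, Dcn, Postn and Acta2 likewise overlapped between groups, with log2 changes of 0.57 to 1.21. Genes with the smallest unadjusted p did not overlap, but they were picked for that p from 4188 genes. The share of all genes without overlap was not counted, so nothing is read from this. Apod was at 686, 1100 and 1270 CPM in sedentary and 365, 469 and 374 in exercise members, a log2 change of -1.36 ± 0.27 (SE, edgeR adjusted p = 0.922). Slpi, a protease inhibitor of secretions, was at 6.44, 24.1 and 3.62 against 50.2, 91.8 and 61.1 CPM, a log2 change of 2.79 ± 0.57 (SE, edgeR adjusted p = 0.922). Tnfrsf1a, a tumour necrosis factor receptor, was at 45.1, 67.5 and 50.7 against 151, 105 and 129 CPM. No gene passed the correction.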

How the data were processed

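Cell Ranger 6.1.2 and the build mm10 are named in the submitters' processing notes, while a software version of 3.1.0 stands in the matrices, per the file headers. The authors deposited raw UMI counts per gene and barcode for each library, with no normalised values. Free RNA was not removed. From these counts, cells were kept and chosen by the limits given in the text. Sums over pooled cells were scaled to counts per 1000000 UMIs (CPM), and ratios were taken after adding 1 CPM (5 CPM for the split by Pi16). A gene was considered from 20 CPM in either pool and called from a 4-fold ratio; 35 gene symbols carried by more than 1 identifier were left out. Counts of 0 were given a floor of 3 counts over the group. Poisson and Clopper-Pearson binomial intervals are exact, at 95%, and cover counting error only.

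The members and gene lists (39 lists, 536 of 537 genes found in the files) were chosen with earlier results of these data known. The genes named were those with the 25 highest and 15 lowest ratios of members to tumour-like cells among genes with a UMI in 20% of cells and 50 CPM, leaving out genes the rule used, 2 to 6 genes a list by level, and for exercise the 5 smallest p-values in each direction with Col1a2, Col3a1, Dcn, Lum, Acta2 and Postn. Genes that led the comparison of the ranges or the Pi16 split, and list genes named for a low or uneven level, were chosen after their values were seen. Exercise against sedentary was tested with edgeR 4.0.16 (TMM, filterByExpr, quasi-likelihood) on sums over members in libraries with at least 3, Benjamini-Hochberg adjusted, after testing on simulated data, and with DESeq2 1.42.0 in R 4.3.3. Scrublet was run in scanpy 1.11.5 with an expected rate of 6%. Promoters are from RefSeq, GRCm38.p6.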

Additional observations from a re-analysis of the deposited data

How the results depend on the processing

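The number of members rests on the Col1a1 limit: it was 357 from 5 UMIs, 73 from 20, 58 from 50 and 73 between 10 and 24, while limits on immune genes, mitochondrial share, CPM or doublets gave 122 to 138. The difference in member share between groups changed sign, from 0.00864 to -0.365 percentage points from 5 Col1a1 UMIs, to -0.00803 with no immune UMI and to -0.104 in the lower range. Leaving out 1 library each gave -0.0918 (without exercise 5) to 0.0921 (without exercise 8). Genes at least 4-fold higher than in tumour-like cells went from 256 to 160 with 10 CPM added, 535 in the upper range and 68 in the lower range. Those lower went from 24 to 41 by the median over libraries, 7 with 10 CPM added and 198 in the upper range. Leaving out the members of 1 library each gave 192 to 328 higher and 24 to 42 lower, the 42 without sedentary 1. The tumour-like cells of the library left out stayed in that comparison. The exercise test called 0 genes, but 188 with no filter, and 0 to 87 when 1 library was left out, the 87 without sedentary 2. In the lower range the log2 ratios of Cxcl5 (-0.26), Cxcl14 (-0.02), Cthrc1 (-0.01) and Cdh11 (-0.5) to tumour-like cells turned negative; the other 36 of the 40 genes ranked by ratio kept their direction there, and all 40 did under the other 13 alternatives run. The cause of these changes was not tested, apart from the fewer or other cells that a limit leaves. Few cells limit all levels: 1 UMI in the upper range is 1.57 CPM. No paired analysis was possible because the groups share no replicate numbers.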

Other observations

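Of 13 genes of MHC class I presentation 12 were considered and 0 were 4-fold apart from tumour-like cells in either range; over all genes 8.11% were higher and 3% lower in the upper range. H2-K1 stood at 1478 CPM in the upper range, 1634 in the lower range and 1424 in tumour-like cells, and B2m at 1419, 1586 and 1267. Of 20 interferon-induced genes 1 was at least 4-fold higher in the upper range and 3, Ifit3, Ifit3b and Rsad2, lower. Ifit3 stood at 20.4 CPM against 168.3 in tumour-like cells. The higher one, Cxcl9, which attracts activated T cells, was at 3170 CPM in sedentary 2, 939 in exercise 5, 1510 in exercise 6 and 2720 in exercise 8, in 25 of 58 cells, against 41.3 CPM in tumour-like and 816.6 in immune cells. Within the upper range Cxcl9 stood at 2188 CPM in Pi16-low and 234.1 in Pi16-high cells, where 2 of 18 cells had a UMI. Cxcl10, a ligand of the same receptor, was at 185.2 CPM against 152.8 in tumour-like cells.

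Cell cycle genes were lower in the upper range. Of 18 genes 5 were at least 4-fold lower than in tumour-like cells and 0 higher, with a median log2 ratio of -1.65. Among all genes 3% were lower and 8.11% higher. Top2a, a topoisomerase of dividing cells, stood at 75.3 CPM, against 304.6 in the lower range and 358.7 in tumour-like cells. Mki67 had a UMI in 10 of 58 upper-range cells, with a highest value of 14. In cells thinned to 5000 UMIs Mki67 was found in 16.7% of upper-range, 11.3% of lower-range and 22% of tumour-like cells. Of 15 immediate early genes considered 3, Fos, Egr2 and Klf2, were at least 4-fold higher in the upper range, against 8.11% of all genes. Mt2, a metallothionein, was at 1288 CPM in the upper range, 7.14 in the lower range and 91.9 in tumour-like cells. Lpl, lipoprotein lipase, had 91 UMIs in 31 of 58 upper-range cells and 1 in the lower range, and Fabp4, a fatty acid binding protein, had 43 in 9 upper-range cells. The other 6 fat cell genes of the list, Adipoq, Plin1, Plin4, Cidec, Lep and Pparg, were at 0 in members.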
